A study of Mus musculus with 2 samples.

Results

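The miRNA genes described are 9 that are used as markers of the vessel wall and connective tissue: Mir126a of endothelial cells, Mir143, Mir145a and Mir145b of mural cells (smooth muscle cells and pericytes), Mir199a-1, Mir199a-2, Mir199b and Mir214 of mesenchyme, and Mir140 of cartilage and related mesenchyme. They were chosen by name and are 9 of 1973 miRNA gene rows. The tissue was forebrain of B6NCrl mouse embryos at 15.5 days, healthy and with no treatment, and the design held 1 group of 2 biological replicates. Replicate 1 was a pool from 78 embryos and replicate 2 a pool from 62, both of mixed sex, and RNA below 30 nt was sequenced. Every comparison between replicates therefore sets 1 pool against another and no condition against another. Whether the dissected tissue included meninges or skull mesenchyme was not stated in the labels.

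MicroRNAs (miRNAs) are cut from a hairpin precursor, and their bases 2 to 8, the seed, pair with messenger RNAs and lower their output. In blood vessels, miR-126 comes from an intron of the endothelial gene Egfl7 and sustains the response to vascular endothelial growth factor. The miR-143 and miR-145 pair favours the contractile state of smooth muscle, and is also found in the pericytes that wrap brain capillaries. The miR-199a and miR-214 pair is made from the long noncoding RNA Dnm3os of embryonic mesenchyme, and miR-140, from an intron of Wwp2, acts in growing cartilage.

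The mature sequences that stand for the abundant and the single-copy members are shown first, from RefSeq (build GRCm38.p6), 5′ to 3′ with the seed in capitals. The miR-126b arms are added because Mir126b lies on the opposite strand of the Mir126a hairpin. RefSeq mature sequences were matched for 6 of the 9 genes, and none for Mir143, Mir145a and Mir145b.
miR-126a-3p: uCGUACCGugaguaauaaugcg
miR-126b-3p: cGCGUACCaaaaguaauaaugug
miR-126b-5p: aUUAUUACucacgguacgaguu
miR-140-3p: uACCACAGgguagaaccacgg
miR-214-3p: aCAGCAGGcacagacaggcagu
miR-214-5p: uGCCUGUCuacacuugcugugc
The miR-126a-3p arm lies at chr2:26591402-26591423 on the plus strand, and miR-126b-5p faces it at chr2:26591399-26591420 on the minus strand. The miR-140-3p arm lies at chr8:107551288-107551308 and the miR-214-3p arm at chr1:162223438-162223459, both on the plus strand. No other gene among the 1058 with a mature sequence in the table had the seed of miR-126a-3p. The seed of miR-140-3p was shared with 1 gene, Mir497b, which had 4 counts in replicate 1 and 0 in replicate 2. The seed of miR-214-3p was shared with 1 gene, Mir761, which had no count in either library.

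The precursors of the 3 miR-199 genes are shown whole because their mature stretches are copies of each other. Capitals mark the bases that match miR-199a-5p (the first run) and miR-199a-3p (the second run).
Mir199a-1: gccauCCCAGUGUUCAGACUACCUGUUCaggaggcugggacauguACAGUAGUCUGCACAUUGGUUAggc
Mir199a-2: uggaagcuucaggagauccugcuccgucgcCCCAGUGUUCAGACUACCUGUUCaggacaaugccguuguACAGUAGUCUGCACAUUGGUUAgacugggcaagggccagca
Mir199b: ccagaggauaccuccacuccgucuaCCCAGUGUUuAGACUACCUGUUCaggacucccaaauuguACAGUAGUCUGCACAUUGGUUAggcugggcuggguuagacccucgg
Mir199a-1 lies at chr9:21496495-21496564 on the minus strand, Mir199a-2 at chr1:162217814-162217923 and Mir199b at chr2:32318460-32318569, both on the plus strand. The 3p arm was identical in all 3 precursors. The 5p arm was identical in Mir199a-1 and Mir199a-2, and the same stretch of Mir199b differed from it by 1 substitution, C10U, counted from 1 at the 5′ end of miR-199a-5p. That base is the lower-case u inside the capitals of Mir199b. The whole 3p arm therefore matches 3 loci equally well, and miR-199a-5p matches 2.

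In the GENCODE annotation of mm10, Mir199a-1, Mir199a-2, Mir199b and Mir214, 4 of the 9 genes, lay inside a dynamin gene on its opposite strand. Mir199a-1 was in Dnm2, Mir199b in Dnm1, and Mir199a-2 with Mir214 in Dnm3. Dynamins are the GTPases that pinch off vesicles from membranes. Mir199a-2 and Mir214 both lay in exons of Dnm3os, with 5444 bases between them. Mir126a was intronic in 8 of the 9 Egfl7 transcripts over it and exonic in 1, a retained-intron transcript, and Mir140 was intronic in 3 of the 4 Wwp2 transcripts over it and exonic in 1 of the same kind. Precursors of the 9 genes were 63 to 110 bases long with a median GC content of 52.9%, against 51.0% over all 1894 rows with a matched annotation.

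Mir143 (chromosome 18, 61649196 to 61649258) and Mir145a (61647825 to 61647894) lay on the minus strand with 1301 bases between them. No annotated transcript covered either. The noncoding RNA gene Carmn ended 367 bases upstream of Mir143 on the same strand. Mir145b lay elsewhere on chromosome 18 (69022199 to 69022273), with no annotated gene within 10 kb. Its precursor shared no stretch of 20 bases with Mir145a or with any other miRNA precursor. Stretches below 18 bases were not compared, and no mature sequence was matched for either gene.

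Replicate 1 held 4464927 counts on the strand of a miRNA gene and replicate 2 held 4753555, of 11743597 and 13074292 reads. Reads placed at more than 1 locus, 44.6% and 42.4% of all reads, were outside the gene rows. Levels are CPM, counts per 1000000 counts in gene rows, given as mean ± SD over n = 2 libraries. Taking 3 counts as the limit that a count of 0 allows, an unseen gene may have stood at up to 0.672 CPM (replicate 1) or 0.631 CPM (replicate 2). Reads had no molecular identifiers, so the 95% Clopper-Pearson intervals, the limits and the tests describe counting error alone. In tissue RNA, fewer cells of a type and less RNA per cell cannot be told apart.

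Endothelial Mir126a had by far the most counts of the 9. It had 70795 counts in replicate 1 and 77851 in replicate 2, which is 15856 CPM (interval 15740 to 15972) and 16377 CPM (interval 16263 to 16492). Its mean of 16117 ± 369 CPM placed it 12th of all rows in each library, and its 2 libraries differed by a coefficient of variation of 2.29%. Rank and CPM are among reads placed at 1 locus, and 44.6% and 42.4% of reads were placed at more than 1. Both pools thus held this endothelial miRNA at a high level among reads placed at 1 locus. Mir126a made up 72.4% of the members' summed counts in replicate 1 (interval 72.1 to 72.7) and 70.6% in replicate 2 (interval 70.3 to 70.9).

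Of the mural genes, Mir143 was high, Mir145a was low and Mir145b was not seen. Mir143 had 14753 and 17176 counts, 3304 CPM in replicate 1 and 3613 CPM in replicate 2 (3459 ± 219 CPM). Mir145a, its neighbour, had 221 and 278 counts, or 49.5 CPM (interval 43.2 to 56.5) and 58.5 CPM (interval 51.8 to 65.8), intervals that overlapped. The 2 genes share a locus and are usually named together, yet counts of Mir143 exceeded those of Mir145a 66.8-fold in replicate 1 and 61.8-fold in replicate 2. How evenly the libraries captured different miRNAs was not tested. Mir145b had no count in either library, on either strand.

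Mir140, used as a marker of cartilage and related mesenchyme, stood close to Mir143. Which cells of the tissue made it was not tested. It had 11429 and 14185 counts, 2560 CPM (interval 2513 to 2607) and 2984 CPM (interval 2935 to 3034), a mean of 2772 ± 300 CPM. The intervals of the libraries did not overlap for Mir126a, Mir143 or Mir140. Mir140 was below Mir143 in both libraries, 1.29-fold and 1.21-fold.

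The mesenchymal genes were lower. Mir214, a miRNA of the Dnm3os transcript, had 360 counts in replicate 1 and 500 in replicate 2, or 80.6 CPM (interval 72.5 to 89.4) and 105 CPM (interval 96.2 to 115), intervals that did not overlap. Mir199b had 199 and 238 counts, or 44.6 and 50.1 CPM, with overlapping intervals (38.6 to 51.2 and 43.9 to 56.8). Mir199a-2, which lies in the same transcript as Mir214, had 12 and 14 counts, or 2.69 and 2.95 CPM, and Mir199a-1 had 0 and 2 counts. Counts in the 3 miR-199 rows summed to 211 and 254, while 5240531 and 5543873 reads stood in the row for reads placed at more than 1 locus. How many of those came from miR-199 was not tested, so the levels of the miR-199 rows are those of reads placed at 1 locus and not of the whole family.

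**Figure D1:**
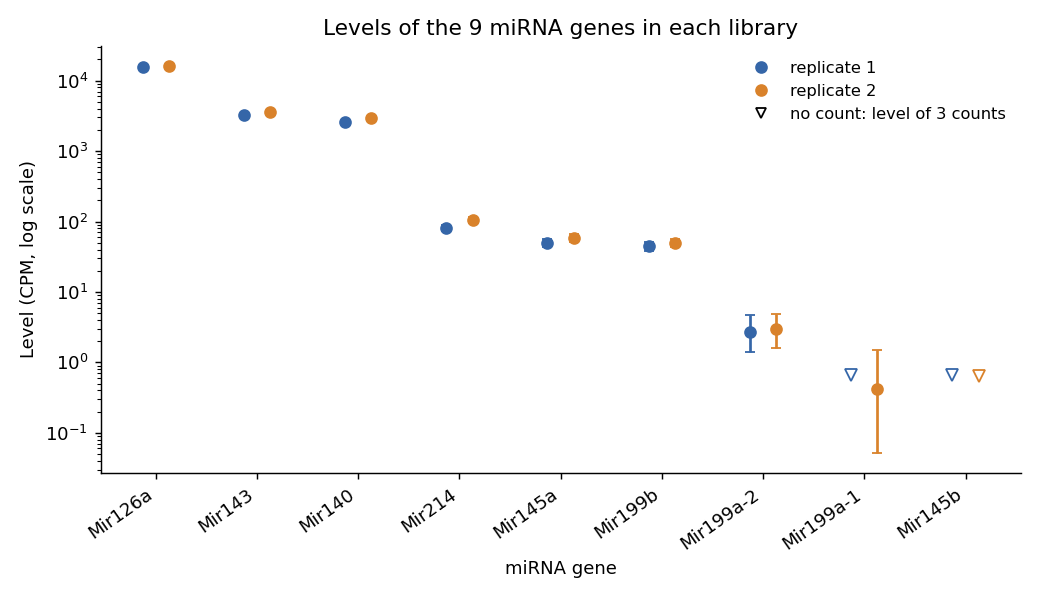
Levels of the 9 miRNA genes in CPM (log axis) in replicate 1 (blue) and replicate 2 (orange), with 95% Clopper-Pearson intervals as bars and open triangles at the level of 3 counts where no read was counted. Mir126a stood at 15856 and 16377 CPM, Mir143 and Mir140 at 2560 to 3613 CPM, Mir214, Mir145a and Mir199b at 44.6 to 105 CPM, and the other 3 at 2.95 CPM or less.

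By mean level the order was Mir126a, Mir143, Mir140, Mir214, Mir145a, Mir199b, Mir199a-2, Mir199a-1 and Mir145b. Small RNA reads cover a cut miRNA and not the length of its precursor, so levels were not divided by length, but the order was the same per base of precursor for all 9 genes. Mir126a exceeded Mir143 by 4.66-fold in the mean and Mir140 exceeded Mir214 by 29.8-fold. Mir143 and Mir140 differed by 1.32 times the sum of their SDs, and Mir214 and Mir145a by 1.64 times. The means of Mir145a and Mir199b differed by 0.651 times the sum of their SDs. This measure does not pair the genes by library. Mir145a had more counts than Mir199b in each library, 221 against 199 and 278 against 238, with overlapping intervals. Together the 9 genes held 2.19% of the gene counts in replicate 1 and 2.32% in replicate 2, and without Mir126a 0.604% and 0.681%.

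Of the 9 genes, 7 had at least 10 counts in each library, the minimum set for calling a gene detected, as did 18.8% of all rows. In the order of all rows, Mir143 was 50th in replicate 1 and 45th in replicate 2, and Mir140 57th and 53rd. Mir214 was 202nd and 190th, Mir145a 228th and 225th, Mir199b 233rd and 230th and Mir199a-2 364th and 374th. The genes nearest in mean CPM over the 2 libraries were Mir93 (18609 ± 627 CPM) and Mir487b (14700 ± 1472 CPM) for Mir126a, Mir18 and Mir382 for Mir143, and Mir484 and Mir301 for Mir140. They were Mir24-2 and the erythroid Mir451a for Mir214, Mir200a and Mir34a for Mir145a, Mir103-2 and Gm23935 for Mir199b, and Mir3572 and Mir124a-1 for Mir199a-2. Of these 14 neighbours, 13 lay within the larger of the 2 SDs, the exception being Mir93. Neighbours were taken for nearness in mean, which favours differences within an SD, and this measure does not pair genes by library. It therefore does not resolve most places between neighbours, although Mir126a was 12th in each library.

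**Figure D2:**
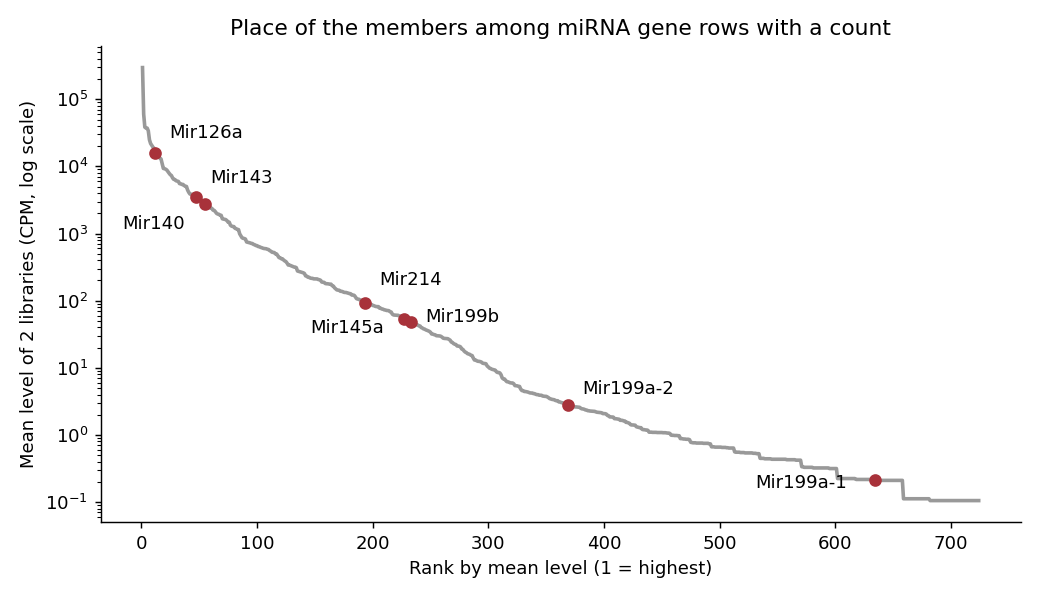
Mean level over 2 libraries (CPM, log axis) against rank for the miRNA gene rows with a count in either library (grey line), with the 8 members that had a count in red. Mir126a was at rank 12, Mir143 at 47, Mir140 at 55, Mir214, Mir145a and Mir199b between 193 and 233, and Mir199a-2 at 369.

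The low counts of Mir199a-1 and Mir199a-2 stood beside shared sequence. Precursors were split into all windows of 20 bases, and a window was counted as shared when any other annotated miRNA precursor held it on either strand. In Mir199a-1, 17 of 51 windows were shared (33.3%), in Mir199a-2 16 of 91 (17.6%) and in Mir199b 10 of 91 (11.0%), in each case only with the other miR-199 genes. The 6 other members shared no window. The order of these 3 genes by level, Mir199b, Mir199a-2 and Mir199a-1, was the reverse of their order by shared windows, a description over 3 genes. Over all matched rows, 80 of 929 with a shared window were detected (8.61%), against 290 of 965 without one (30.1%), and 2 of the 3 members with a shared window were detected, against 5 of the 6 without. The median level of the detected rows went the other way, 135 CPM with a shared window and 106 CPM without. Rows with and without a shared window were not matched for any other trait, and whether shared sequence lowered counts was not tested. Sequence elsewhere in the genome was not searched.

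**Figure D3:**
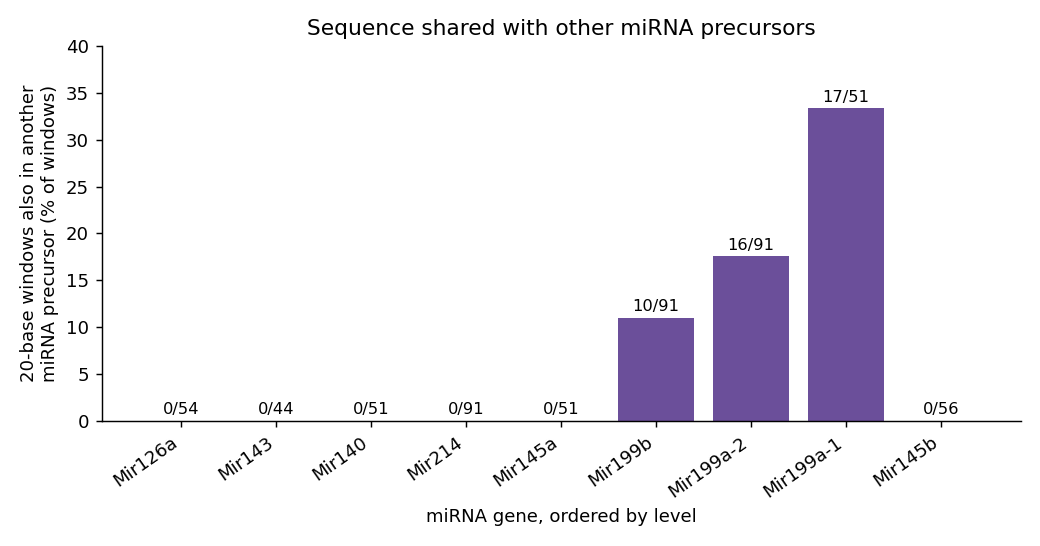
Percent of the 20-base windows of each precursor that another annotated miRNA precursor also held, with the number of windows above each bar and the genes ordered by level. Bars above 0 were those of Mir199b, Mir199a-2 and Mir199a-1, at 11.0%, 17.6% and 33.3%.

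Between the pools, the 7 detected members were all slightly higher in replicate 2, and 4 of them beyond counting error. Of all 370 detected genes, 209 were higher in replicate 2. Genes with 10 or more counts over both libraries were compared by an exact binomial test, two-sided, with Benjamini-Hochberg adjustment over the 457 genes tested. Of the 7 members tested, 4 were called higher and 0 lower, where 36.3% of all genes tested were called, 19.3% higher and 17.1% lower. The test calls genes with many counts more readily. With at least 100 counts in total, 83 of 298 genes were called higher and 75 lower. Of the 6 members tested at that minimum, 4 were called higher and 0 lower. Of all genes called at the minimum of 10 counts, 53.0% were higher. That share was 42.9% with TMM scaling and 69.1% with Mir99a, the most abundant gene, left out of the total. The median log2 ratio of replicate 2 over replicate 1 was 0.17 over the 7 members and 0.046 over all 370 detected genes.

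Mir140 was higher by 0.22 on the log2 scale (exact binomial test, adjusted p = 2.48e-33) and Mir143 by 0.13 (exact binomial test, adjusted p = 1.24e-14). Mir214 had the largest ratio of the detected members, 0.38 (exact binomial test, adjusted p = 0.000445), and 90 of the 370 detected genes had a ratio at least as large in either direction. Mir126a was higher by 0.047 (exact binomial test, adjusted p = 2.71e-09), a call that was lost with TMM scaling, where the ratio was 0.0065 (exact binomial test, adjusted p = 0.575). The ratios of Mir145a (0.24), Mir199b (0.17) and Mir199a-2 (0.12) did not pass (exact binomial test, adjusted p = 0.155, 0.388 and 0.926). These 3 genes had 12 to 278 counts per library. The spread between the libraries over all genes tested, as the edgeR coefficient of variation, was 16.1%. That value comes from a fitted dispersion and is not the SD over the mean of CPM given for single genes. As SD over mean, the coefficients of variation of the 7 members ran from 2.29% for Mir126a to 18.7% for Mir214. Their median was 8.22%, against 9.18% over the 370 detected genes.

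**Figure D4:**
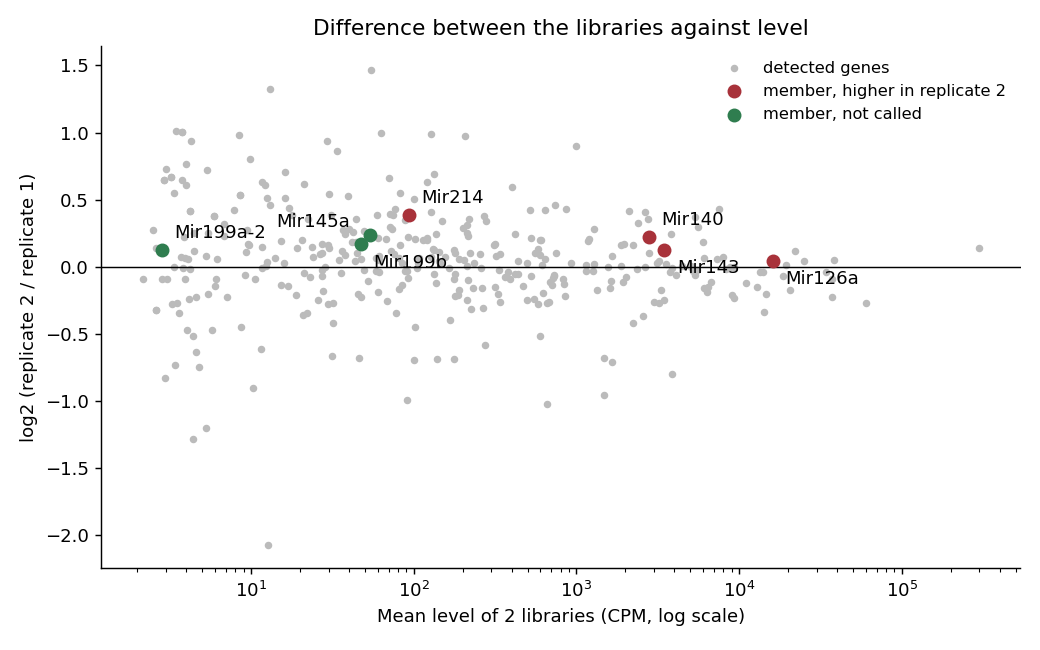
Log2 ratio of replicate 2 over replicate 1 against mean level (CPM, log axis) for 370 detected genes (grey), with members called higher in red and members not called in green. The 7 members lie between 0.047 and 0.38, inside the cloud of other genes.

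Ratios between members within a library do not depend on how libraries are scaled. They are ratios of read counts, and how evenly the libraries captured different miRNAs was not tested. Of 6 pairs compared, 3 differed between the pools beyond counting error by a two-sided Fisher's exact test adjusted over the 6 pairs. The endothelial Mir126a exceeded the mural Mir143 by 4.80-fold in replicate 1 and 4.53-fold in replicate 2 (Fisher's exact test, adjusted p = 2.37e-05). The log2 ratio fell by 0.082 from replicate 1 to replicate 2, so replicate 2 held less Mir126a for each count of Mir143. The ratio of Mir143 to Mir140 went from 1.29 to 1.21 (Fisher's exact test, adjusted p = 0.000452), and that of Mir143 to Mir214 from 41.0 to 34.4 (Fisher's exact test, adjusted p = 0.0251).

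For the pairs that share a locus, a difference between the pools did not pass the test, although their log2 ratios changed by -0.11 and 0.25. Mir143 to Mir145a was 66.8 and 61.8 (Fisher's exact test, adjusted p = 0.499), a mean log2 ratio of 6.0 ± 0.079 (SD, n = 2). Mir214 to Mir199a-2 was 30.0 in replicate 1 and 35.7 in replicate 2 (Fisher's exact test, adjusted p = 0.690), but with 12 and 14 counts of Mir199a-2 the log2 ratio had intervals of 4.08 to 5.87 and 4.40 to 6.04. Mir199b to Mir214, from 2 dynamin loci, was 0.553 and 0.476 (Fisher's exact test, adjusted p = 0.320). A p above the threshold does not show that these ratios were equal.

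**Figure D5:**
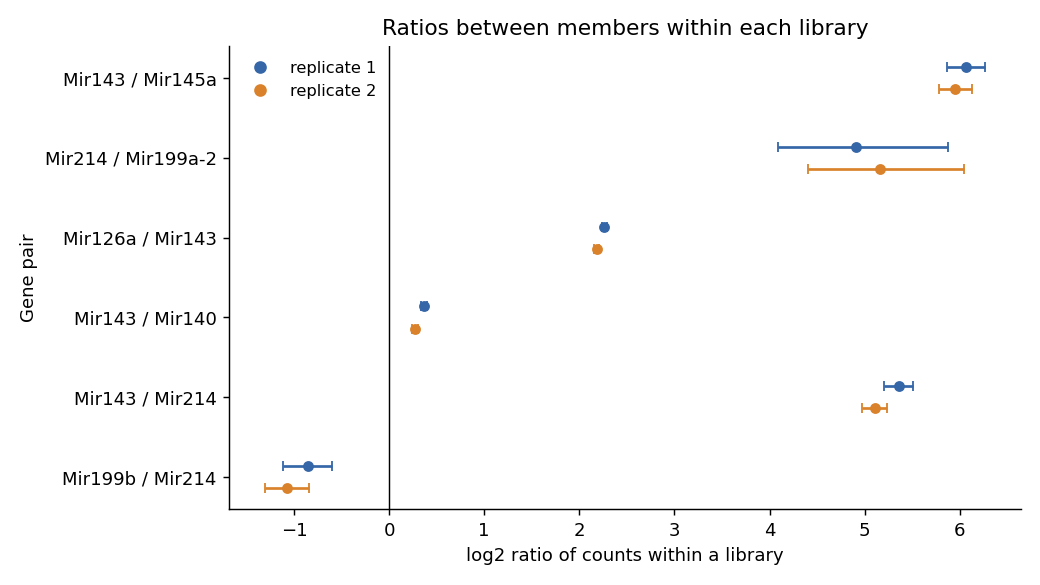
Log2 ratio of the counts of 2 members within replicate 1 (blue) and replicate 2 (orange) for 6 gene pairs, with 95% Clopper-Pearson intervals as bars. Mir143 to Mir145a and Mir214 to Mir199a-2 have overlapping intervals, while those of Mir126a to Mir143 and of Mir143 to Mir140 do not overlap.

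Almost no read fell on the opposite strand of a member. Mir126a had 3 opposite-strand counts in replicate 1 and 5 in replicate 2, Mir214 had 0 and 3, and the other 7 had none. Over all gene rows, 1.59% and 1.49% of counts, 72065 and 71671, were on the opposite strand. Much of that lay in a few rows with no sense count, such as Gm25927 (18364 and 18528) and Gm24321 (15842 and 14250). The share over all rows therefore does not describe a usual row, and few opposite-strand counts are not particular to the members. Mir126b, annotated on the opposite strand within the Mir126a hairpin, had no row of its own, so the 3 and 5 reads opposite Mir126a are the counts at its position. Gm23363, a miRNA gene annotated 117 bases from Mir199b on the same strand, had 2 counts in each library.

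Other miRNAs linked to vessels and connective tissue were taken as lists beside the members. For these and the lists of other cells below, calls stand beside 19.3% called higher and 17.1% lower over all genes tested. Of 8 genes linked to endothelium and angiogenesis, 6 had a row and all 6 were detected, of which 3 were called higher, 1 lower and 2 not called. They summed to 30559 CPM in replicate 1 and 31251 CPM in replicate 2, mostly Mir130a, which targets antiangiogenic homeobox genes, at 24922 ± 527 CPM, followed by Mir23a (5517 ± 64.8 CPM) and Mir221 (179 ± 18.8 CPM). These miRNAs are also made by other cells of the brain. Of 9 genes linked to fibroblasts, matrix and cartilage, 5 were called higher, 0 lower and 4 not called, and their sum went from 6563 to 7990 CPM. Among those not called, Mir455 (-0.053) and Mir29b-1 (-0.49) had log2 ratios below 0, while the other genes of the list were above 0. Mir21a, a miRNA of fibrosis and many proliferating cells, was at 3505 and 4161 CPM, Mir22 at 2115 and 2650 CPM and Mir27b at 444 and 597 CPM. The median log2 ratio was 0.017 over the 6 detected genes of the first list and 0.33 over the 7 of the second, each beside 0.046 over all detected genes.

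Lists of markers of other cells are given by their counts and sums, and their part in the members' differences was not tested. The neural list, which checks the tissue, had 9 of 10 genes with a row, 2 called higher, 2 lower and 5 not called. It summed to 18693 and 18376 CPM. Its highest genes were the neuronal Mir137 at 9092 ± 926 CPM, Mir92b at 5547 ± 814 CPM and Mir128-1 at 2002 ± 75.9 CPM. Mir9-2, Mir124a-1, Mir124a-2 and Mir124a-3 had means of 1.05 to 3.26 CPM, and Mir9-1 had no row under that symbol. The sum holds only reads placed at 1 locus, and how many other reads came from these genes was not tested. Erythroid genes (3 with a row, 1 higher, 2 not called) summed to 140 and 165 CPM. Immune genes (6 with a row, 1 higher, 1 lower, 3 not called, Mir142b at 0) summed to 235 and 247 CPM, a sum that lacks Mir142, which had no row under that symbol. The position of Mir142b held 842 and 894 counts on the opposite strand, so reads were present at that locus. Epithelial genes (7 with a row, 2 higher, 5 not called) summed to 1732 and 1917 CPM, although the median log2 ratio of the 7 detected genes was -0.030. Muscle genes (7 with a row, 1 lower, 2 not called) summed to 61.8 and 54.1 CPM, lower in replicate 2 although the median log2 ratio of the 3 detected genes was 0.25. Mir206, the skeletal muscle miRNA, went from 20.6 to 4.84 CPM and was the gene called lower, while Mir208b was at 34.7 and 41.2 CPM and Mir208a at 6.05 and 7.57 CPM, neither called. Mir1a-1, Mir133a-1 and Mir133a-2 were at 0 in both libraries, and Mir1a-2 had no row under that symbol. As for the neural list, these are counts of reads placed at 1 locus, so they do not show that the miRNAs were absent.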

How the data were processed

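The deposited files hold whole-number read counts per miRNA gene, made by the authors from alignments to mm10 with GENCODE M4 annotation, per the deposited README text. The aligner and counting tool were not given in the sources used here. Columns hold counts on either strand and on each strand. Column 3, which held nearly all reads on the genes, was used as the sense strand. The 4 rows that name no gene stayed out of totals and tests: 44.6% and 42.4% of reads were multi-mapping, 14.3% and 18.2% unmapped, and 2.42% and 2.53% without a feature on either strand. Symbols, loci and precursors came from GENCODE M21 by gene identifier (1894 of 1973 rows matched, 79 did not). Genes of the lists were found by symbol, so a listed gene without a row may stand among the unmatched rows or under another symbol.

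CPM, exact binomial tests (at least 10 counts in total, Benjamini-Hochberg over all genes, threshold 0.05), Fisher's exact tests and 95% Clopper-Pearson intervals were computed in Python 3.11.15 with scipy 1.17.1. Log2 ratios had 0.5 counts added. TMM factors and the spread came from edgeR 4.0.16, and size factors from DESeq2 1.42.0. No quasi-likelihood test was possible with 1 group. Both tests compare these 2 libraries, whose spread may be partly technical.

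The members and the lists (endothelial, fibroblast, erythroid, immune, muscle, epithelial, neural) were chosen with earlier results of these data known. Genes named were the members, miRNA genes within 10 kb, the detected members' neighbours in level, and up to 3 of the highest genes per list. Mir99a, Mir497b and Mir761, the low neural genes, genes at 0 and genes without a row were named after values were seen. So were Gm25927, Gm24321, Mir455 and Mir29b-1. Alternatives were other scalings, the column of either strand, other minimums, no pseudocount and leaving out each replicate. The window lengths of 18 and 22 bases and the order per base were added after seeing the data.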

Additional observations from a re-analysis of the deposited data

Results flagged for a closer look

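The count on the opposite strand of Mir126a in replicate 2, 5 reads, lay above the 3 counts that stand for the limit of a count of 0, in a column that the levels do not use. In replicate 1 it was 3 reads. Against 77851 counts on the sense strand this was 0.00642% of the counts on either strand in replicate 2 (95% Clopper-Pearson interval 0.00209 to 0.0150%). No cause was tested.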

How the results depend on the processing

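The 7 detected members had a log2 ratio above 0 under TMM, DESeq2 and total-without-Mir99a scaling, with the column of either strand and with no pseudocount. The median over all detected genes was also above 0 under the 3 scalings, at 0.0054, 0.018 and 0.11. The 4 calls held under these scalings except that of Mir126a with TMM scaling, and the cause was not tested. The number of members called was 3 there and 4 otherwise. The summed level of the 9 genes, 22544 ± 916 CPM, was 32092 CPM with Mir99a left out of the total and 8379 CPM with all reads of a library as the total, since both replace the denominator. The 6 log2 ratios between members and the share of Mir126a moved by less than 1 SD with the column of either strand and, as must hold for 2 values, with either replicate left out. Members detected were 7 with at least 1 count in each library and 6 with at least 100. With windows of 18 or 22 bases, 3 members still had a shared window. Mir199a-1, Mir199a-2 and Mir145b had 0 to 14 counts per library, which limits the precision of their levels. With 2 pools in 1 group, no difference has a check beyond these libraries.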
